A study of Mus musculus with 24 samples.

Results

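The C1q/TNF-related proteins are secreted relatives of adiponectin, encoded by the C1qtnf genes. The genes were chosen by symbol: C1qtnf1, C1qtnf2, C1qtnf3, C1qtnf4, C1qtnf5, C1qtnf6, C1qtnf7, C1qtnf9 and C1qtnf12. Of these 9 symbols, 8 had a row among the 14912 genes of the expression table, and C1qtnf12 was not analysed here. The data came from bulk RNA of the left ventricle of male wild-type C57BL/6J mice. In the hypertensive-LVH group, osmotic mini-pumps delivered angiotensin II (ANG II), a peptide that raises blood pressure and enlarges the left ventricle, at 1500 ng/kg/min for 7 days. Control mice received saline over the same time. There were 12 samples in each group, labelled as separate ventricles, and the age of the mice is not given in the sources used here. The model is a short pressor infusion in a single strain and sex, and whole-ventricle RNA pools all cells of the wall.

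Adiponectin, made by fat cells, signals through the receptors AdipoR1 and AdipoR2, the adaptor APPL1 and AMP-activated protein kinase (AMPK), an energy sensor. The C1q/TNF-related proteins (CTRPs) are built in a similar way, with a signal peptide, a collagen-like stretch and a globular C1q domain at the carboxyl end, and they assemble as trimers and larger complexes. They act as hormones or local signals in metabolism, inflammation and tissue repair. CTRP9, the member closest to adiponectin, is known for its expression in the heart.

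Values are FPKM (fragment counts scaled to transcript length and to the total mapped fragments of the sample), a scale on which levels of different genes can be set side by side because the length of the transcript is divided out. The deposited values had been adjusted after the FPKM were made. Exact ties between samples of the same group divided each group into 4 sets (samples 1 to 3, 4 to 6, 7 to 9 and 10 to 12). The sets were matched across the groups by their sample numbers, and within each set most genes had been shifted and scaled. Of the 14912 genes, 278 kept whole hundredths in every sample and were not adjusted, C1qtnf5 among them. Summed over all genes, the values came to between 460715 and 515185 FPKM per ANG II sample and between 482319 and 567727 FPKM per control sample, and fragment totals are not given in the sources used here. The 7 cardiomyocyte markers, among them Myh6 and Tnnt2, summed to between 30767 and 50694 FPKM in every sample, whereas 3 atrial markers (Sln, Myl7, Myl4) ranged from 0 to 3153 FPKM. In the deposited values samples 4 to 6 stood apart from the other sets in both groups, as described beside each result that they touch. For adjusted genes the shift of each set enters these levels, so the level of 1 set against another is not known.

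All 8 genes are protein-coding, with positions from GENCODE vM21 on GRCm38. C1qtnf6 (ENSMUSG00000022440.9) is a minus-strand gene of chromosome 15 (78523346 to 78531416). C1qtnf3 (ENSMUSG00000058914.12) lies on the same chromosome from 10952332 to 10980150, and C1qtnf9 (ENSMUSG00000071347.3) on chromosome 14 from 60768134 to 60780869. C1qtnf4 (ENSMUSG00000040794.5) lies on chromosome 2 from 90885860 to 90890525, and C1qtnf5 (ENSMUSG00000079592.9) on chromosome 9 from 44107245 to 44109187. C1qtnf1 (ENSMUSG00000017446.14) and C1qtnf2 (ENSMUSG00000046491.10) are both on chromosome 11, from 118428203 to 118449963 and from 43474276 to 43491525. C1qtnf7 (ENSMUSG00000061535.11) lies on chromosome 5 from 43515538 to 43618803. They are small genes in coding terms, with a longest coding sequence of between 243 codons (C1qtnf5) and 333 codons (C1qtnf9), spread over transcripts of 2 to 6 exons. The span of C1qtnf5 lies inside that of Mfrp on the same strand and overlaps Rnf26 on the opposite strand. Mfrp had a mean of 0.0464 FPKM and Rnf26 of 4.29 FPKM. Strand-specific counting is not stated, so reads of C1qtnf5 and Rnf26 in the shared stretch cannot be told apart. Mfrp shares the strand, so strand could not separate its reads from those of C1qtnf5 there. The values of both depend on how shared reads were assigned, which is not given in the sources used here.

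Promoter sequences of 6 of the 8 genes matched by symbol in RefSeq (GRCm38.p6), each reaching from 250 bases before to 50 bases after the annotated start. Those of C1qtnf6, C1qtnf3 and C1qtnf9 are shown because the results turn on these genes: the member with the largest increase, the member whose direction depended on the adjustment, and the member most abundant in the control ventricle. They lie at chr15:78529602-78529901 on the minus strand, chr15:10952082-10952381 on the plus strand and chr14:60767884-60768183 on the plus strand. The C1qtnf6 start of RefSeq lies inside the span that GENCODE gives the gene, downstream of its outermost start. Capitals mark matches, on either strand, to TGANTCA (the AP-1 motif), GGAATG (the TEAD motif), GGGCGG (the GC box) and TATAAA (the TATA box), and no matches overlap.
C1qtnf6: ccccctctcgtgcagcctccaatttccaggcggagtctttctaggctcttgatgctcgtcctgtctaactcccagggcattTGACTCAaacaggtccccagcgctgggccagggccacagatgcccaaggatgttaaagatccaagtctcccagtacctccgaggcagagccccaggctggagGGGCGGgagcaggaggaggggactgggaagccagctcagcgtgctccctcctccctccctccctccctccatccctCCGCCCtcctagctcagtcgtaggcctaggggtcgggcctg
C1qtnf3: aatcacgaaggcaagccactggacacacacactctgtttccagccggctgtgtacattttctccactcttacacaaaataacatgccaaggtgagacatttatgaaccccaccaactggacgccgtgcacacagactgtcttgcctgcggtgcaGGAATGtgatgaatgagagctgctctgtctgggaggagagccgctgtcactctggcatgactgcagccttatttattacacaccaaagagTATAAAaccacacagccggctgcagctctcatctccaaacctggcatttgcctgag
C1qtnf9: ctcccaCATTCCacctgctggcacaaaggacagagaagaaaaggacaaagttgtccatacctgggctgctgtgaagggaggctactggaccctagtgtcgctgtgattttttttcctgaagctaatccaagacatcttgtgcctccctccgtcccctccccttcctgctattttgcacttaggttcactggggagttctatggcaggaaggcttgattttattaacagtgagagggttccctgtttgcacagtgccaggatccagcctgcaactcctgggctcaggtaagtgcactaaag
The AP-1 letters were found at position -169 of C1qtnf6, counted from the start, and in none of the other promoters matched. Of all 32851 promoters in the table, 7.81% hold them. The TEAD letters were found in C1qtnf3 at -96 and in C1qtnf9 at -244, as well as in C1qtnf5 and C1qtnf7, and in 14.7% of all promoters. The GC box, present in 35.7% of all promoters, was found in C1qtnf6 at 2 places and in C1qtnf2, and the TATA box, present in 13.6%, in C1qtnf3 only. The GC content was 63.7% in the C1qtnf6 promoter, 50.7% in that of C1qtnf3 and 51.0% in that of C1qtnf9. These matches describe the letters of the windows and say nothing of binding. The RefSeq window matched to C1qtnf5 lies at the start of Mfrp and is not shown.

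In the control ventricle, C1qtnf9 was the most abundant of the 8 genes, at 28.3 ± 4.44 FPKM (SD, n = 12). C1qtnf1 followed at 9.37 ± 2.31 FPKM and C1qtnf6 at 8.43 ± 4.36 FPKM. C1qtnf7 (4.34 FPKM), C1qtnf2 (3.89 FPKM), C1qtnf5 (3.71 FPKM) and C1qtnf4 (3.61 FPKM) formed a close group, and C1qtnf3 was lowest at 1.54 ± 0.170 FPKM. The ranges of neighbours in this order overlapped except at both ends, where all 12 samples of C1qtnf9 lay above all of C1qtnf1 and all 12 of C1qtnf4 above all of C1qtnf3. After ANG II the order was led by C1qtnf6 at 25.5 FPKM and C1qtnf9 at 22.7 FPKM, and C1qtnf6 was the higher of the pair in 8 of 12 samples. C1qtnf1 came next at 10.7 FPKM, then C1qtnf5 at 7.70 FPKM, C1qtnf7 at 5.18 FPKM, C1qtnf2 at 5.01 FPKM, C1qtnf4 at 2.53 FPKM and C1qtnf3 at 1.36 FPKM. All neighbours in this second order overlapped. The shifts made by the adjustment enter these levels, apart from those of C1qtnf5.

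**Figure D1:**
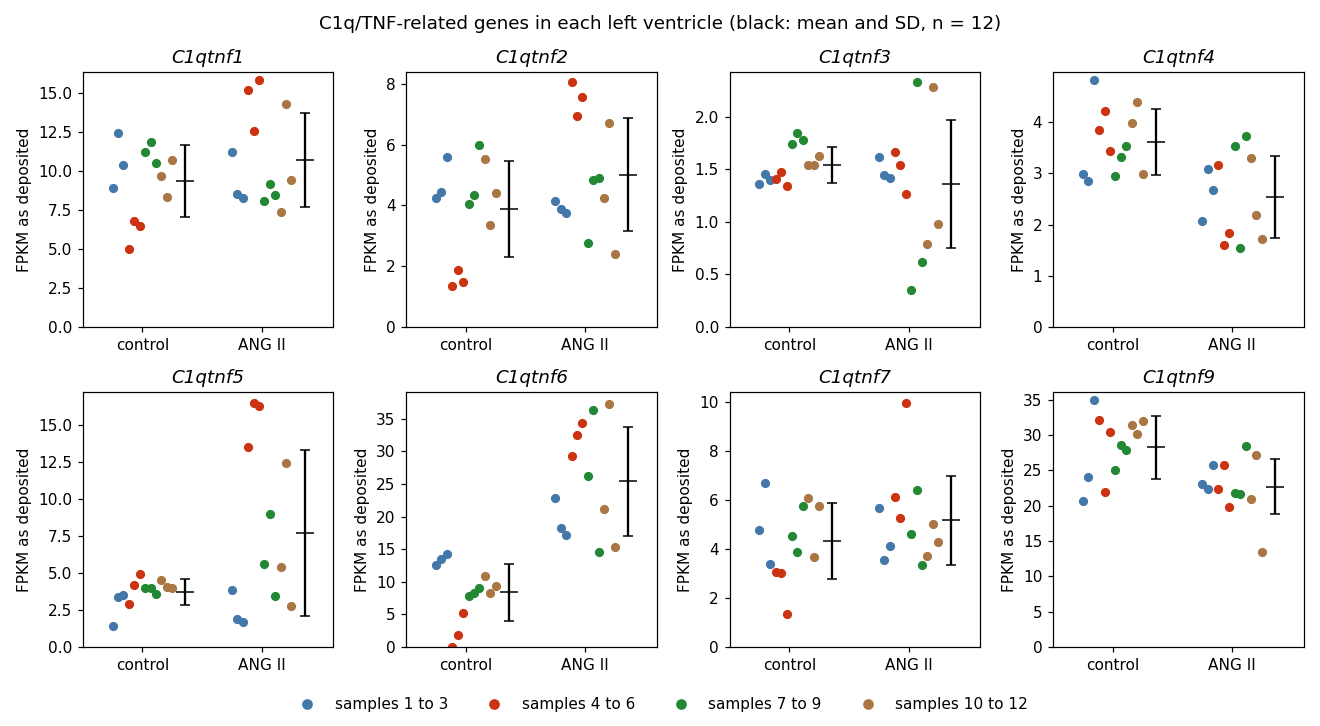
Each point is the deposited FPKM of 1 left ventricle (y axis, linear, 1 panel per gene) in the control and ANG II groups, coloured by set of samples, with the mean and SD (n = 12) in black. The groups do not overlap for C1qtnf6. The red points of samples 4 to 6 are the lowest controls for C1qtnf1, C1qtnf2, C1qtnf6 and C1qtnf7, and the highest ANG II samples for C1qtnf2 and C1qtnf5.

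The comparison of ANG II with saline asked which of these secreted proteins change in message level in the hypertrophied ventricle. C1qtnf6 rose, C1qtnf4 and C1qtnf9 were modestly lower, and the other 5 genes did not pass the test. The limma fit on log2(FPKM + 1) covered the 14026 genes with a mean of at least 0.1 FPKM, all 8 members included. A gene was called when its adjusted p (Benjamini-Hochberg over all tested genes) was under 0.05 and its log2 fold change was beyond 0.5 in size. By this rule 1 of 8 members was called, against 5.92% of all tested genes. An adjusted p under 0.05 alone was reached by 3 members, 1 higher and 2 lower, against 33.5% of all tested genes (20.9% higher and 12.6% lower). The members' median log2 fold change was 0.20, and that of all tested genes was 0.05.

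C1qtnf6 encodes CTRP6, known as a regulator of the alternative complement pathway. Its lowest, median and highest values were 14.6, 24.6 and 37.3 FPKM after ANG II and 0.0125, 8.69 and 14.3 FPKM in controls. Every ANG II sample lay above every control sample, which 0.271% of tested genes showed in this direction. The mean was 25.5 ± 8.36 FPKM (SD, n = 12) against 8.43 ± 4.36 FPKM. On the log2(FPKM + 1) scale the difference was 1.69 (SE 0.33, 95% confidence interval 1.01 to 2.37), with a limma adjusted p of 4.46e-04. C1qtnf6 is among the hub genes that the study picked from these samples, so its separation here is not independent evidence of its direction. In bulk RNA, a change in the number of the cells that express a gene and a change in RNA per cell cannot be told apart. The sum of 8 fibroblast markers, among them Col1a1, Pdgfra and Postn, ran from 745 to 2767 FPKM (median 1331) after ANG II and from 199.5 to 1074 FPKM (median 937) in controls, and 5 of the 8 had a higher level with an adjusted p under 0.05. For adjusted genes the shifts made by the adjustment enter these sums and their ranges. The part of the fibroblast marker difference in the C1qtnf6 result was not tested.

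C1qtnf9 encodes CTRP9. Its lowest, median and highest values were 13.5, 22.4 and 28.4 FPKM after ANG II and 20.7, 29.3 and 35.0 FPKM in controls. The groups overlapped, but all 12 ANG II samples lay below the control median. The mean was 22.7 ± 3.91 FPKM (SD, n = 12) against 28.3 ± 4.44 FPKM, a log2 difference of -0.31 (SE 0.10) with a limma adjusted p of 0.0164. Without samples 4 to 6 the difference was the same size, at -0.31, with an adjusted p of 0.0609 from 9 against 9 samples, and without samples 10 to 12 it was -0.20 with an adjusted p of 0.113. The sum of the cardiomyocyte markers was also lower after ANG II (30767 to 43952 FPKM, median 36236, against 40691 to 50694 FPKM, median 48651), with 4 of the 7 lower at an adjusted p under 0.05. The part of that difference in the C1qtnf9 result was not tested.

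C1qtnf4 encodes CTRP4, which carries C1q domains in tandem and lacks the collagen-like stretch. Its lowest, median and highest values were 1.55, 2.42 and 3.72 FPKM after ANG II and 2.85, 3.48 and 4.82 FPKM in controls. Of the ANG II samples, 7 of 12 lay below all controls and 10 of 12 below the control median. The mean was 2.53 ± 0.802 FPKM (SD, n = 12) against 3.61 ± 0.643 FPKM. The log2 difference was -0.41 (SE 0.11) with a limma adjusted p of 0.00568, short of the fold threshold of 0.5. It passed that threshold with a pseudocount of 0.1 (-0.54) and with quantile normalization (-0.51). With samples 4 to 6 left out it was -0.33 with an adjusted p of 0.0637.

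C1qtnf5 encodes CTRP5, a protein of the retinal pigment epithelium whose mutation causes late-onset retinal degeneration. It is the only member whose values had not been adjusted. Its lowest, median and highest values were 1.69, 5.51 and 16.5 FPKM after ANG II and 1.41, 3.99 and 4.94 FPKM in controls. The controls lay close together, whereas the ANG II samples ranged from the lowest control levels to far above the highest. The SD was 5.59 FPKM (n = 12) after ANG II and 0.894 FPKM in controls, around means of 7.70 and 3.71 FPKM. The log2 difference of 0.62 (SE 0.28) had a limma adjusted p of 0.0895 and was not called. It was called with the set of samples as a term in the fit (adjusted p = 0.0374, a fit that called 5.8% of tested genes), without samples 1 to 3 (0.86, adjusted p = 0.0189), and without hypertensive-LVH sample 2 (0.74, adjusted p = 0.0394) or sample 3 (0.75, adjusted p = 0.0335). The difference was 0.25 when samples 4 to 6 were left out (adjusted p = 0.519).

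C1qtnf1, C1qtnf2 and C1qtnf7 overlapped widely between the groups. C1qtnf1, whose product CTRP1 is made in fat and in the vessel wall, was at 10.7 ± 3.02 FPKM (SD, n = 12) after ANG II and 9.37 ± 2.31 FPKM in controls (log2 difference 0.17, SE 0.14, limma adjusted p = 0.344). C1qtnf2, whose product CTRP2 acts on fuel use in muscle and liver, was at 5.01 ± 1.87 FPKM against 3.89 ± 1.58 FPKM (log2 difference 0.32, SE 0.19, limma adjusted p = 0.202). C1qtnf7 was at 5.18 ± 1.81 FPKM against 4.34 ± 1.56 FPKM (log2 difference 0.23, SE 0.16, limma adjusted p = 0.289). In all 3 genes the sign of the difference rested on samples 4 to 6. Without them the log2 differences were -0.15, -0.15 and -0.10, with adjusted p of 0.308, 0.432 and 0.585.

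C1qtnf3 encodes CTRP3, first known from cartilage and also made by fat. Its lowest, median and highest deposited values were 0.348, 1.43 and 2.33 FPKM after ANG II and 1.34, 1.51 and 1.85 FPKM in controls. The controls were tight, and the ANG II samples lay on both sides of them. The mean was 1.36 ± 0.606 FPKM (SD, n = 12) against 1.54 ± 0.170 FPKM, a log2 difference of -0.15 (SE 0.11) with a limma adjusted p of 0.293.

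**Figure D2:**
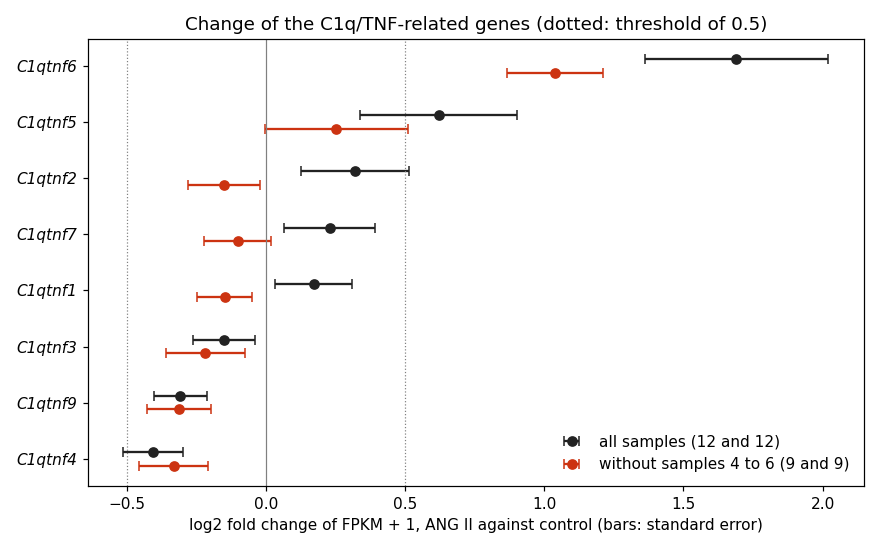
Log2 fold change of FPKM + 1, ANG II against control (x axis), for each of the 8 genes, with bars of 1 standard error from limma, for all samples (black, 12 and 12) and without samples 4 to 6 (red, 9 and 9). C1qtnf6 lies beyond the dotted threshold of 0.5 in both fits, at 1.69 and 1.04, and C1qtnf1, C1qtnf2 and C1qtnf7 change sign.

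The size of the ANG II effect differed between the sets of samples for 4 of the 8 genes. In the test of the group by set interaction (limma F test, 3 degrees of freedom), C1qtnf1, C1qtnf2, C1qtnf6 and C1qtnf7 had an adjusted p under 0.05, against 7.49% of all tested genes. Their adjusted p were 0.00269, 0.00108, 0.0104 and 0.0458. C1qtnf5 had an adjusted p of 0.0867. For C1qtnf3, C1qtnf4 and C1qtnf9 the adjusted p were 0.473, 0.673 and 0.515.

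Within single sets, the log2(FPKM + 1) of C1qtnf6 was higher after ANG II by 3.65 in samples 4 to 6, and by 0.49, 1.42 and 1.20 in the other sets (1 to 3, 7 to 9 and 10 to 12). The 3.65 rested on control samples 4 to 6 at 0.0125, 1.90 and 5.22 FPKM as deposited. For adjusted genes such log2 differences depend on the shift made in the set. C1qtnf2 differed by 1.73 in samples 4 to 6 and by -0.22, -0.18 and -0.05 in the other sets. C1qtnf1 differed by 1.13 in samples 4 to 6 and by -0.16, -0.35 and 0.07 in the others. In the deposited values, samples 4 to 6 were extreme in controls for C1qtnf1, C1qtnf2, C1qtnf6 and C1qtnf7 and after ANG II for C1qtnf2 and C1qtnf5. C1qtnf1, C1qtnf2, C1qtnf6 and C1qtnf7 had been shifted by set, so which of their groups departed from the other sets cannot be told. C1qtnf2 was at 1.35, 1.88 and 1.48 FPKM in control samples 4 to 6, below all other controls, and at 8.06, 6.94 and 7.55 FPKM in ANG II samples 4 to 6, above all other ANG II samples. C1qtnf1 was at 5.00, 6.80 and 6.51 FPKM in the same controls, again below all others. C1qtnf7, at 3.07, 3.03 and 1.36 FPKM, and C1qtnf6, at the values given above, were also below all other controls there. C1qtnf5 was at 13.5, 16.5 and 16.2 FPKM in ANG II samples 4 to 6, above all other samples, while its controls in this set, at 2.94, 4.20 and 4.94 FPKM, spanned much of the control range. In a fit of samples 4 to 6 alone, 6 of 8 members were called (C1qtnf1, C1qtnf2, C1qtnf5, C1qtnf6 and C1qtnf7 higher, C1qtnf4 lower), against 19.3% of the genes tested there.

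In the deposited values the fibroblast marker sum followed the same sets. Its mean was 2174 FPKM in ANG II samples 4 to 6 against 262 FPKM in control samples 4 to 6. In the other sets it was 1219 against 1001 FPKM (samples 1 to 3), 1355 against 913 FPKM (samples 7 to 9) and 1280 against 986 FPKM (samples 10 to 12). For adjusted genes the shift of each set enters these sums. The level of 1 set against another is therefore not known, and 262 FPKM cannot be read as a measured low level in those controls. The part of the marker sum in the differences of the members was not tested. After removal of samples 4 to 6 no member had an adjusted p under 0.05 for the interaction (limma F test), 0 were under 0.05 before adjustment, and C1qtnf6 was still called, at 1.04 (SE 0.17, limma adjusted p = 5.58e-04), against 3.95% of the genes tested in that fit.

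Because the adjustment set aside 1 group difference per gene, rescaled the remainder in each set and added the difference back, the spacing of the values allowed the differences within each set to be read before it. A single solution was found for each of the 7 adjusted members. The level of 1 set against another is not known from this, so differences are given in FPKM as ANG II minus the controls of the same set. Tests exchanged labels only within sets (exact permutation test, two-sided). They used all 160000 relabelings, or all 8000 where samples 4 to 6 were left out, and their p-values are unadjusted.

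C1qtnf3 changed direction. Before the adjustment it was higher after ANG II in 4 of 4 sets, by 0.04, 0.663, 0.563 and 0.447 FPKM, with a mean difference of 0.428 FPKM (exact permutation test, p = 4.75e-04). As deposited the differences were 0.0897, 0.0818, -0.691 and -0.219 FPKM, with a mean of -0.185 FPKM (exact permutation test, p = 0.354). The group difference that had been set aside was 2.76 FPKM, larger than any of the 4 differences within sets, and the order of the groups in samples 7 to 9 and 10 to 12 was turned by the step. Relative to the control mean of their set, the 12 ANG II samples were at 0.17, -0.01, -0.04, 0.80, 0.70, 0.49, 0.0867, 1.35, 0.257, 0.01, 1.17 and 0.16 FPKM, and all controls lay within 0.05 FPKM of it. ANG II samples 8 and 11 were the highest, samples 2, 3 and 10 were level with their controls, and 9 of 12 lay above all 3 controls of their set. Leaving out samples 4 to 6, an alternative added once the data were known, gave a mean difference of 0.35 FPKM (exact permutation test, p = 0.0095). These differences are small in FPKM, in the member with the lowest level.

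C1qtnf6 was higher in 4 of 4 sets before the adjustment too, by 1.57, 29.5, 17.6 and 14.7 FPKM, with a mean of 15.9 FPKM (exact permutation test, p = 1.125e-04, against 17.0 FPKM and p = 1.25e-05 as deposited). The separation of the groups was narrower. In samples 1 to 3 the ANG II ventricles stood at 6.22, 0 and -1.50 FPKM and the controls at -1.17, 0.03 and 1.14 FPKM around the control mean, so that the groups overlapped in this set, and 10 of 12 ANG II samples lay above all controls of their set against 12 of 12 as deposited. With samples 4 to 6 of each group left out, the mean difference was 11.3 FPKM (exact permutation test, p = 0.00225).

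**Figure D3:**
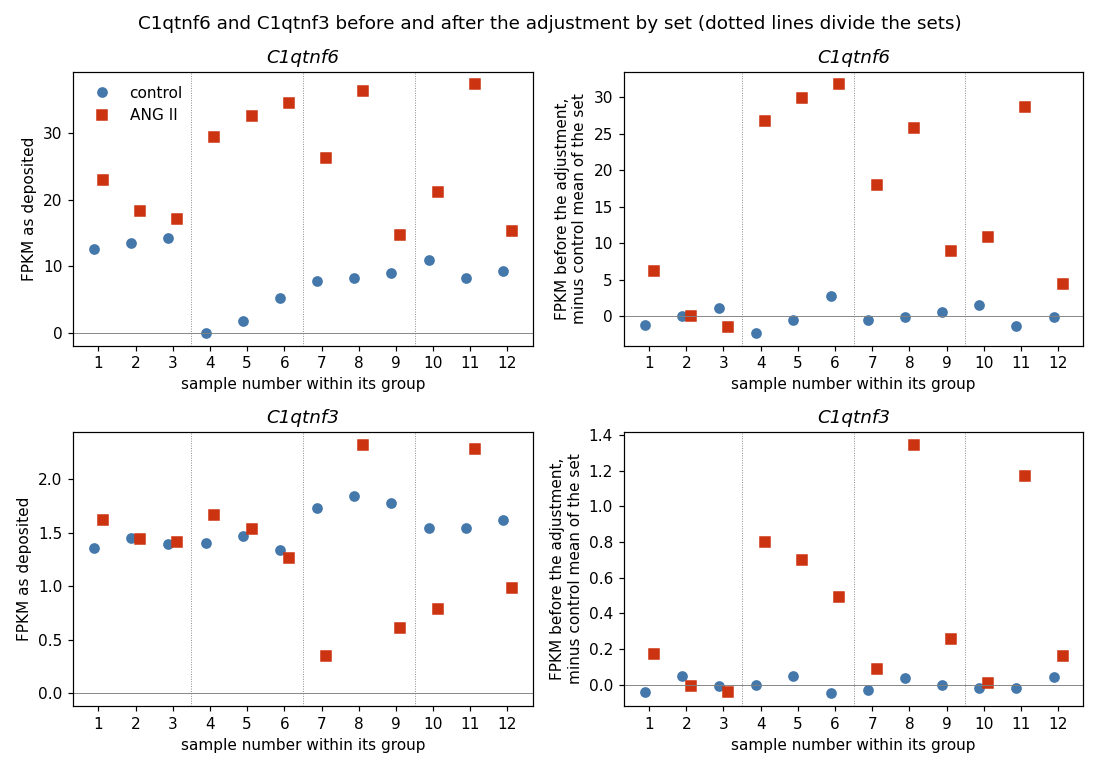
FPKM of C1qtnf6 (top) and C1qtnf3 (bottom) by sample number, as deposited (left) and before the adjustment, minus the control mean of the set (right), with controls as circles and ANG II samples as squares and dotted lines between the sets. C1qtnf3 lies below its controls in ANG II samples 6, 7, 9, 10 and 12 on the left and at or above their mean there on the right, and C1qtnf6 overlaps its controls in samples 1 to 3 only on the right.

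The lower level of C1qtnf4 and C1qtnf9 was present in all 4 sets before the adjustment. C1qtnf4 differed by -0.977, -1.66, -0.363 and -1.41 FPKM, with a mean of -1.10 FPKM (exact permutation test, p = 0.00526). C1qtnf9 differed by -2.00, -5.46, -3.96 and -12.0 FPKM, with a mean of -5.86 FPKM (exact permutation test, p = 0.0113). The widest gap of C1qtnf9 was in samples 10 to 12, where ANG II sample 12 stood at -20.7 FPKM relative to the mean of its controls. With samples 4 to 6 left out, and samples 10 to 12 kept, the means were -0.916 FPKM for C1qtnf4 (exact permutation test, p = 0.0463) and -5.99 FPKM for C1qtnf9 (exact permutation test, p = 0.043).

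C1qtnf5, the unadjusted gene, differed by -0.277, 11.4, 2.16 and 2.69 FPKM, with a mean of 3.99 FPKM (exact permutation test, p = 0.0112), and without samples 4 to 6 by 1.52 FPKM (exact permutation test, p = 0.223). The means before the adjustment were 2.39 FPKM for C1qtnf1 (exact permutation test, p = 0.108), 1.43 FPKM for C1qtnf2 (exact permutation test, p = 0.0958) and 1.23 FPKM for C1qtnf7 (exact permutation test, p = 0.193). Each of these 3 rested on samples 4 to 6, with differences there of 11.7, 7.04 and 5.79 FPKM, and without this set the means were -0.72, -0.441 and -0.297 FPKM (exact permutation test, p = 0.418, 0.430 and 0.615).

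**Figure D4:**
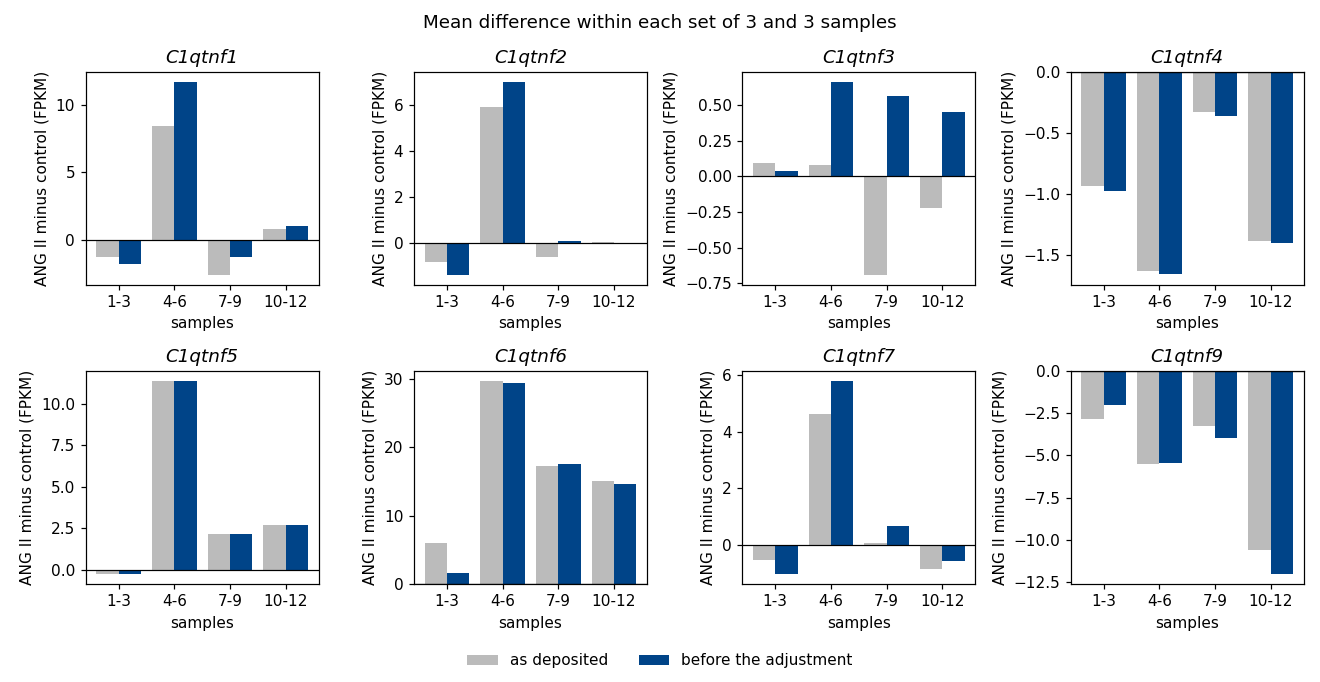
Mean difference in FPKM, ANG II minus control (y axis), within each set of 3 and 3 samples (x axis), as deposited (grey) and before the adjustment (blue), 1 panel per gene with its own scale. For C1qtnf3 the blue bars lie above 0 in all sets while the grey bars of samples 7 to 9 and 10 to 12 lie below it, and C1qtnf1, C1qtnf2, C1qtnf5 and C1qtnf7 have their tallest bars in samples 4 to 6.

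How the members varied together was described with the mean of each group in each set removed from log2(FPKM + 1). Over the 24 samples, 21 of the 28 pairs of members had a Pearson correlation above 0, and the median was 0.335. The highest value was that of C1qtnf5 with C1qtnf6, at 0.686, and the lowest that of C1qtnf3 with C1qtnf4, at -0.517. Among 11457 genes with a mean of at least 1 FPKM, the nearest to C1qtnf6 were Col5a1, a fibrillar collagen chain, with r of 0.970, Loxl2, an enzyme that crosslinks collagen, with r of 0.944, and Lrrc32, which anchors latent TGF-beta on cells, with r of 0.929. The samples share their sets and, for most genes, their adjustment. On the log2(FPKM + 1) scale C1qtnf6 spread most widely in control samples 4 to 6, at 0.0180, 1.53 and 2.64. That spread depends on the shift made in the set, and it enters the correlations of C1qtnf6. All 3 neighbours were called as higher after ANG II, with log2 fold changes of 1.55, 1.29 and 0.58.

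Other genes that encode a C1q domain were examined from a list of 21, of which 15 were in the table and 14 were tested. After ANG II 6 of them were called higher and 0 lower, against 4.52% and 1.4% of all tested genes, and their median log2 fold change was 0.34. The 3 chains of complement C1q, which starts the classical pathway, rose together. C1qa was at 125 ± 43.5 FPKM (SD, n = 12) after ANG II and 77.9 ± 22.0 FPKM in controls, with a log2 fold change of 0.65 (limma adjusted p = 0.00525), and C1qb and C1qc rose by 0.74 and 0.61. Macrophages are the usual source of C1q, and the sum of 7 macrophage markers ran from 187 to 521 FPKM (median 328) after ANG II and from 141 to 309 FPKM (median 200) in controls, with 7 of 7 higher at an adjusted p under 0.05. The part of that shift in the C1q result was not tested.

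The remaining called genes of this list belong to the extracellular matrix and the vessel wall. Emilin1, a glycoprotein of elastic fibres, rose by 0.85 (limma adjusted p = 0.00354), Mmrn1, stored in platelets and endothelium, by 0.62 (limma adjusted p = 0.00137) and Col8a1, a short-chain collagen, by 0.50 (limma adjusted p = 0.00502). Col8a1 sat on the fold threshold and fell below it with quantile normalization and with median-ratio scaling, at 0.46 and 0.45. Emilin2 and Cbln1 went the other way, at -0.34 (limma adjusted p = 0.0122) and -0.15 (limma adjusted p = 0.0296), and were not called. Cbln1 was low, at 0.158 FPKM after ANG II and 0.289 FPKM in controls. With a pseudocount of 0.1 it was called lower, at -0.57 (limma adjusted p = 0.0374). When samples 4 to 6 were left out, 0 of these genes were called by limma, though C1qb was still at 0.47 (adjusted p = 0.0685) and Mmrn1 at 0.45 (adjusted p = 0.0338).

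Before the adjustment, Col8a1 was higher after ANG II in 4 of 4 sets, with a mean difference of 11.5 FPKM (exact permutation test within sets, unadjusted p = 1.25e-04) and of 8.76 FPKM without samples 4 to 6 (exact permutation test, p = 0.0025). Its relative Col8a2, which limma did not call, was also higher in 4 of 4 sets, by a mean of 1.55 FPKM (exact permutation test, p = 0.00123) and of 0.573 FPKM without samples 4 to 6 (exact permutation test, p = 0.0245). The C1q chains and Emilin1 were higher in 3 of 4 sets. In samples 1 to 3 C1qa, C1qb, C1qc and Emilin1 differed by -7.08, -4.81, -12.2 and -3.13 FPKM. Their p without samples 4 to 6 were 0.127, 0.0725, 0.191 and 0.123 (exact permutation test). No single solution was found for Mmrn1.

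Adipoq itself, the gene of adiponectin, was at 1.38 ± 1.66 FPKM after ANG II and 1.06 ± 1.99 FPKM in controls, with a log2 difference of 0.20 (limma adjusted p = 0.645). The sum of 6 adipocyte markers was 58.4 to 138 FPKM against 44.0 to 110 FPKM, with 0 of them past the test.

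No proposed receptor passed the test. Of 6 tested, 0 had an adjusted p under 0.05 with limma or the exact Wilcoxon rank-sum test, and 1, Lamp1, had an unadjusted p under 0.05 (log2 difference 0.12, limma adjusted p = 0.083). Adipor1, the receptor that binds adiponectin and CTRP9, was at 97.6 ± 4.48 FPKM (SD, n = 12) after ANG II and 97.1 ± 5.85 FPKM in controls, a log2 difference of 0.01 with a 95% confidence interval of -0.06 to 0.08. Adipor2 differed by -0.01, and Cdh13, which encodes the adiponectin-binding T-cadherin, by 0.04, at 82.0 FPKM after ANG II and 79.8 FPKM in controls.

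Downstream, 17 genes of the AMPK and AKT arm were tested, and 2 were higher and 4 lower at an adjusted p under 0.05, with 0 past the fold threshold. Over all tested genes, 33.5% had an adjusted p under 0.05, so that the count of 6 of 17 is near the background. Akt2, the AKT kinase best known for insulin action, was at 84.4 ± 4.55 FPKM (SD, n = 12) after ANG II and 107 ± 4.64 FPKM in controls, and the groups did not overlap, which 0.756% of tested genes showed in either direction. It fell by 0.34 on the log2 scale (SE 0.03, limma adjusted p = 5.02e-07). Differences of the receptor and signalling genes were not read before the adjustment, so their results hold for the deposited values only. AMPK subunits moved in different directions. Prkag1 and Prkab1, the gamma-1 and beta-1 subunits, fell by 0.39 (limma adjusted p = 3.73e-06) and 0.43 (limma adjusted p = 1.23e-05), and Prkag2, the gamma-2 subunit known for inherited cardiomyopathy, rose by 0.34 (limma adjusted p = 0.0087). Appl1 (0.14, limma adjusted p = 0.0263) and Stk11 (-0.10, limma adjusted p = 0.0353) were the remaining genes under 0.05. When samples 4 to 6 were left out, the log2 differences of Akt2, Prkag1 and Prkab1 were -0.32, -0.41 and -0.48, with limma adjusted p of 8.68e-05, 8.46e-05 and 1.46e-04. The other 3 genes then had limma adjusted p above 0.05, with Prkag2 at 0.29 (0.0926), Appl1 at 0.13 (0.125) and Stk11 at -0.07 (0.271). Appl1 was at 0.06 (limma adjusted p = 0.294) with quantile normalization and at 0.10 (limma adjusted p = 0.101) with median-ratio scaling.

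**Figure D5:**
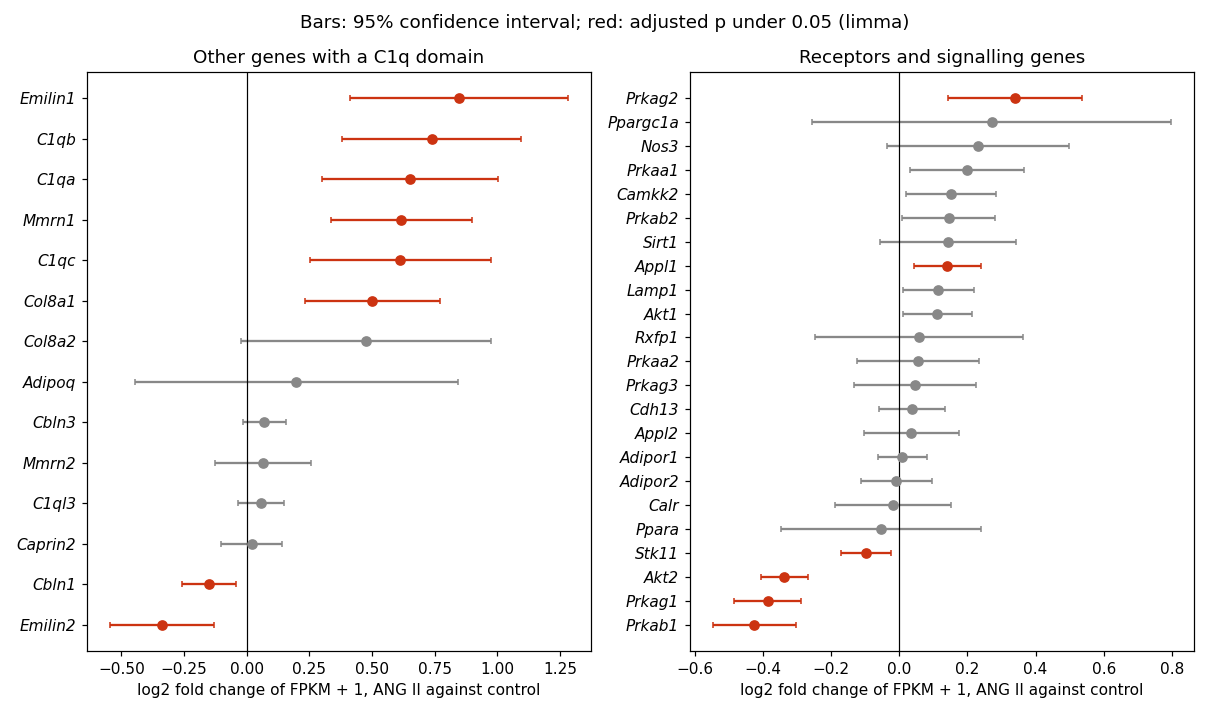
Log2 fold change of FPKM + 1, ANG II against control (x axis), with 95% confidence intervals from limma (24 samples), for other genes with a C1q domain (left) and for receptor and signalling genes (right), red where the adjusted p is under 0.05. Emilin1 (0.85), the C1q chains and Mmrn1 are the highest of the left panel, and Prkab1, Prkag1 and Akt2 are the lowest of the right panel.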

How the data were processed

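The table that the authors deposited gives FPKM per gene symbol, from sequencing of RNA selected with oligo(dT). It was analysed for 24 left ventricles, 12 per group, and further samples that the study describes were not analysed here. HISAT, Bowtie2 and RSEM are named in the submitters' processing notes, and their versions, the genome build and the annotation are not given in the sources used here. Of the values 2741 (0.766%) were negative, none of them in a C1qtnf gene. At least 100 genes tied exactly between samples of the same group and set, which showed an adjustment by set that the methods of the study do not name. The unit was therefore treated as adjusted FPKM.

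Groups came from the labels. Values under 0 were replaced by 0, and log2(FPKM + 1) of genes with a mean of at least 0.1 FPKM was tested with limma 3.58.1 in R 4.3.3, with an intensity trend and the thresholds of the study. Printed means and SDs of FPKM used the values as deposited. Differences before the adjustment were read from the smallest steps between values (0.01 FPKM before the adjustment) in Python 3.11.15 (numpy 2.4.6, scipy 1.17.1). These steps were tested on simulated data. All tests were two-sided. P-values measure the spread between these ventricles. The adjustment used the groups, which tests of the deposited values leave out of account.

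The members, gene lists and tests were chosen with earlier results of these data known. Named were all members, genes of the lists, and the 3 genes nearest to each called member. Gene positions were taken from GENCODE vM21, in which 14881 symbols of the table were found. The labels state no pairing by replicate number, and the main fit used none. The alternatives were another pseudocount, other filters, median-ratio scaling, quantile normalization, no trend, no fold threshold, an exact Wilcoxon rank-sum test, the set or the replicate number as a term, and leaving out samples or sets. Differences before the adjustment without samples 4 to 6 were added after the data were seen. No column of the table belonged to a sample outside the labels.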

Additional observations from a re-analysis of the deposited data

Results flagged for a closer look

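The ANG II effect differed between the 4 sets of samples for 4 members in the test of the group by set interaction (limma F test, adjusted over all tested genes). The adjusted p was 0.00269 for C1qtnf1, 0.00108 for C1qtnf2, 0.0104 for C1qtnf6 and 0.0458 for C1qtnf7. In each of them the difference on the log2(FPKM + 1) scale was largest in samples 4 to 6, at 1.13, 1.73, 3.65 and 1.22. All 4 genes had been adjusted, so these log2 differences depend on the shift made in each set. With a pseudocount of 0.1 the 4 adjusted p were 0.00199, 0.000639, 0.0477 and 0.0406. Without samples 4 to 6 the lowest of the 4 adjusted p was 0.802, for C1qtnf6. The labels name no batch, and what the sets were is not given in the sources used here.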

How the results depend on the processing

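Of 344 alternative values for single members, 311 kept their direction and their side of the threshold and 19 reversed. Among the alternatives run, the call of C1qtnf6 was lost only in samples 1 to 3 alone (0.49) and in samples 10 to 12 alone (1.20), each with 3 against 3 samples. The count of called members, 1, became 3 without the fold threshold, 2 with a pseudocount of 0.1, with quantile normalization, with the set of samples as a term and without samples 1 to 3, 6 in samples 4 to 6 alone, and 0 in samples 1 to 3 alone and in samples 10 to 12 alone. It ranged from 1 to 2 when each ventricle was left out, and C1qtnf5 was the added call without hypertensive-LVH sample 2 or 3. The count for the other C1q domain genes, 6, became 0 without samples 4 to 6 and in samples 1 to 3, 7 to 9 or 10 to 12 alone. It became 5 with quantile normalization or median-ratio scaling (Col8a1 lost) and without samples 7 to 9 (C1qc lost). It became 7 with a pseudocount of 0.1 (Cbln1 added, lower), 8 without the fold threshold and 9 in samples 4 to 6 alone. When each ventricle was left out it ranged from 5 to 6. The count for receptors and AMPK genes, 0 (11 at an unadjusted p under 0.05 in limma), became 6 without the fold threshold, 4 in samples 4 to 6 alone (Prkaa1, Prkag2, Ppargc1a and Ppara), and 1 without samples 4 to 6 (Ppargc1a, at 0.79, against -1.30 in samples 4 to 6 alone) and in samples 7 to 9 alone (Prkag2), with 0 to 0 when each ventricle was left out. The number of members that differed by set fell from 4 to 0 without samples 4 to 6.

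Reversed log2 differences were, for C1qtnf1, -0.15 without samples 4 to 6, -0.16 in samples 1 to 3 alone and -0.35 in samples 7 to 9 alone. For C1qtnf2 they were -0.15 without samples 4 to 6 and -0.22, -0.18 and -0.052 in samples 1 to 3, 7 to 9 and 10 to 12 alone, and for C1qtnf7 -0.10, -0.11, -0.0048 and -0.19 in the same order. C1qtnf3 was at 0.052 in samples 1 to 3 alone and at 0.045 in samples 4 to 6 alone, and C1qtnf5 at -0.11 in samples 1 to 3 alone. Mean differences in FPKM before the adjustment reversed for C1qtnf3 (0.428, and 0.35 without samples 4 to 6), and without samples 4 to 6 for C1qtnf1 (-0.72), C1qtnf2 (-0.441) and C1qtnf7 (-0.297). The cause of these reversals was not tested.

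With the replicate number as a block, the counts of calls were 1, 6 and 0, as without it, and C1qtnf6 was at 1.69 (limma adjusted p = 0.00567). Same-numbered samples deviated apart, with correlations of -0.557 to -0.00109 (median -0.219, 12 pairs), and 0 ANG II samples correlated best with their own number. Such samples share a set, and the adjustment shifted both groups of a set. These correlations therefore cannot decide whether the numbers pair the samples. The deposited values hold no fragment counts, so the precision of a low value such as those of C1qtnf3 is unknown.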
